A study of Mus musculus with 6 samples.

Results

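The 34 genes described here encode the phosphoinositide 3-kinase (PI3K), AKT and mTOR signalling pathway: PI3K subunits, the phosphatases that oppose them, the AKT kinases, the TSC proteins and RHEB, the subunits of both mTOR complexes and their effectors. They were taken as a list of gene symbols from the known pathway, drawn up with earlier results of these data known, and all 34 were found among the 24421 gene rows and passed the filter on low counts. The RNA came from C57BL/6 mouse bone marrow sorted as LK cells, which lack lineage markers and bear the receptor c-Kit, a gate known to hold progenitors of the myeloid, erythroid and megakaryocyte lines with fewer stem cells. The groups were ASXL1-MT-KI mice, in which a mutant form of the chromatin regulator ASXL1, a gene often altered in myeloid malignancy, was knocked in, and their wild type littermates, with 3 libraries each, called biologically independent in the labels, from animals aged 8 to 12 weeks and no treatment named. The sources used here do not give the locus, driver or copy number of the knock-in, the sex of the animals, or whether a library was 1 animal or a pool, so p-values measure the spread between these libraries.

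Class I PI3Ks phosphorylate a membrane lipid downstream of cytokine receptors such as c-Kit and FLT3, and the product draws PDK1 and AKT to the membrane, where PDK1 and mTOR complex 2 activate AKT. AKT then inhibits the TSC complex, GSK3 and the FOXO transcription factors, and through RHEB it releases mTOR complex 1, which promotes protein synthesis. In blood stem cells too much of this signalling is known to drive cells out of quiescence, and FOXO factors protect them. The pathway is regulated largely by phosphorylation, which counts of mRNA do not measure.

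Asxl1 itself had 15525, 14763 and 12868 counts in the ASXL1-MT-KI libraries, against 8077, 7793 and 6703 counts in the wild type libraries. The libraries held 40462168 to 47579480 counts, and values below are counts scaled to a common library size (CPM) with factors from the trimmed mean of M values (TMM). Kit averaged 382.9 ± 11.7 CPM in ASXL1-MT-KI cells and 406.4 ± 41.0 CPM in wild type cells (SD, n = 3 each), while 9 lineage markers summed to 37.5 to 50.8 CPM in ASXL1-MT-KI libraries and 32.7 to 51.9 CPM in wild type libraries, with Cd3e, Cd8a and Ms4a1 under 10 counts in each. Libraries numbered 3 stood apart from numbers 1 and 2 in both groups. Summed erythroid markers ran from 1283 to 1740 CPM in ASXL1-MT-KI libraries and from 921.7 to 1486 CPM in wild type libraries, lowest in number 3 of each group. Though these sums overlapped, all 10 erythroid markers had a positive log2 fold change, with a median of 0.41. At an adjusted p under 0.05, 1 rose, beside 8.29% of all tested genes. With the replicate number added to the fit 9 rose, beside 16.7%. Summed stem and progenitor markers ran from 1356 to 1397 CPM in ASXL1-MT-KI libraries and from 1493 to 1708 CPM in wild type libraries. B lymphoid markers summed to 41.9 to 53.8 CPM against 64.7 to 90.4 CPM, in the same order. A large part of that sum was Dntt, at 23.5 ± 4.86 CPM in ASXL1-MT-KI and 53.5 ± 11.4 CPM in wild type cells. Summed megakaryocyte markers ran from 301.2 to 389.8 CPM in ASXL1-MT-KI libraries and from 427.6 to 489 CPM in wild type libraries. Those of mast cells, basophils and eosinophils were at 269.1, 220.4 and 490.3 CPM in ASXL1-MT-KI libraries and ran from 511 to 594.1 CPM in wild type libraries. Calls among the 9 tested genes of this list numbered 0 at an adjusted p under 0.05. The fit with the replicate number gave 3 falls, beside 13.8% of all tested genes. Neutrophil granule markers, the largest sum, overlapped, at 18890 to 20030 CPM in ASXL1-MT-KI and 18410 to 20340 CPM in wild type libraries. Monocyte and dendritic markers summed to 1719 to 1903 CPM in ASXL1-MT-KI and 1683 to 1717 CPM in wild type libraries, slightly higher without overlap. Much of that sum was Ly6c2, the gene of the list that rose, at 586.5 ± 45.9 CPM in ASXL1-MT-KI and 482.5 ± 23.0 CPM in wild type cells. Of 9 tested in that list 3 fell and 1 rose at an adjusted p under 0.05, beside 7.69% and 8.29% of all tested genes. In bulk samples fewer cells of a type and less RNA per cell cannot be told apart, and the part of these marker differences in the results below was not tested.

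Most pathway mRNAs were at close levels in both genotypes, and those that changed were mainly lower in ASXL1-MT-KI cells. Of the 34 members 7 fell and 1 rose at an adjusted p under 0.05 (quasi-likelihood test of edgeR, Benjamini-Hochberg adjusted over 13548 genes). The genes that fell were Phlpp1, Rictor, Foxo1, Pik3ap1, Gsk3b, Inpp5d and Akt1, and the gene that rose was Phlpp2. Falls thus took in 20.6% of the members and 7.69% of all tested genes, rises 2.94% of the members and 8.29% of all tested genes, and calls in either direction 23.5% against 16%. The median log2 fold change was -0.00 over the members and 0.00 over all tested genes, with 17 members on either side of 0. Without the number 3 libraries 8 members fell and 1 rose. With the replicate number as a block, a pairing read from the counts of all genes and given by no label, 9 fell and 3 rose, or 35.3% of the members against 30.5% of all genes (13.8% lower and 16.7% higher). Scaling by total counts moved rises from 51.9% to 67.1% of all calls, and among the members 4 fell and 3 rose with it.

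**Figure D1:**
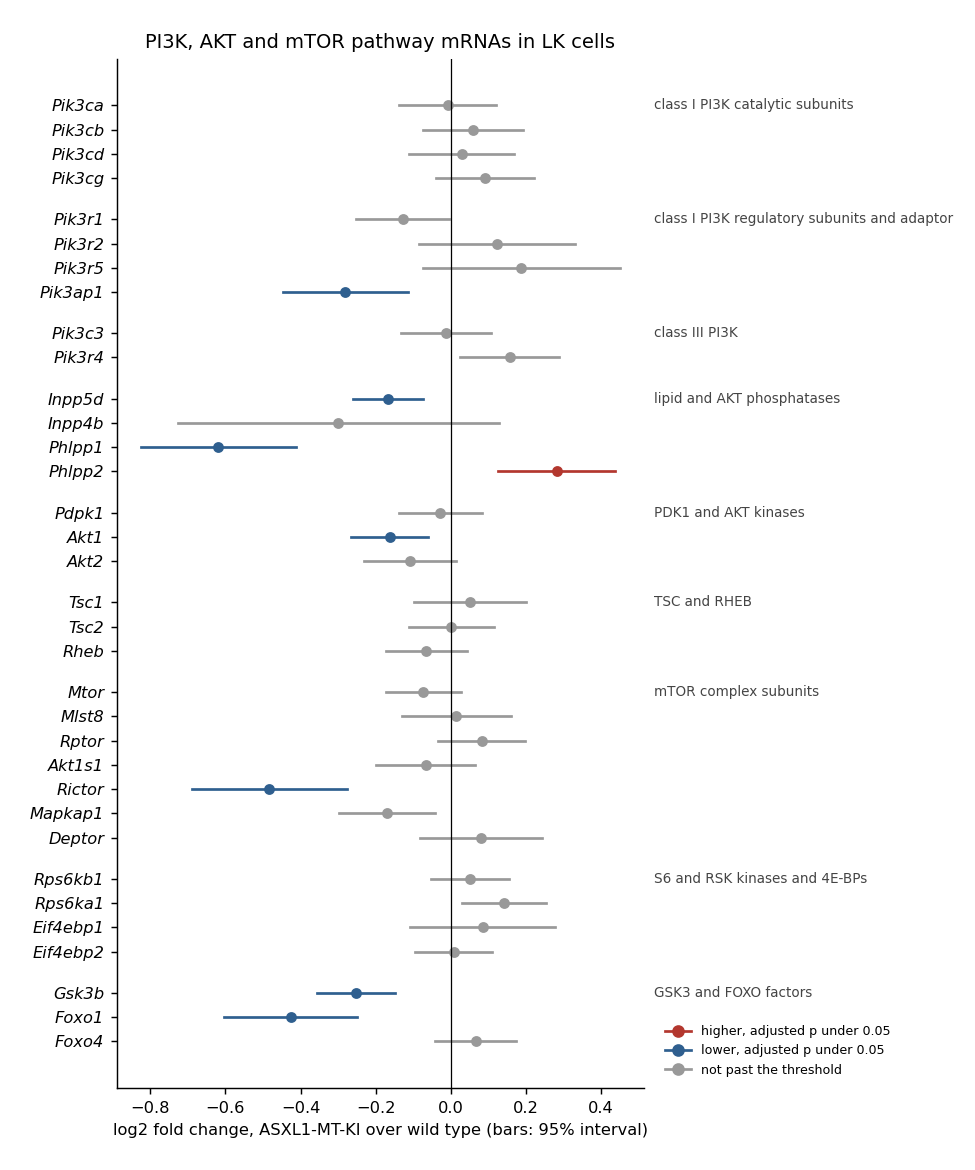
Log2 fold change of each of the 34 members, ASXL1-MT-KI over wild type, with its 95% interval from the edgeR fit, grouped by role. The 7 members that fell are in blue, Phlpp2, which rose, is in red, and the 26 others, in grey, lie between -0.30 and 0.19.

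Levels per transcript length spanned a wide range. In CPM per kb of the longest annotated transcript, Rps6ka1 was at 108.2 ± 2.15 in ASXL1-MT-KI cells and 98.1 ± 4.92 in wild type cells, and Akt1 at 94.98 ± 2.27 in ASXL1-MT-KI cells and 106.3 ± 3.25 in wild type cells (SD, n = 3 each). These were the highest levels, Akt1 first in wild type and Rps6ka1 first in ASXL1-MT-KI cells. Inpp5d followed at 48.4 ± 0.47 in ASXL1-MT-KI cells and 54.3 ± 0.87 in wild type cells, then Pik3cd at 44.6 ± 1.05 in ASXL1-MT-KI cells and 43.7 ± 3.61 in wild type cells. Akt1, Inpp5d and Pik3cd are forms that blood cells are known to use strongly. Lowest per length were Phlpp1, Foxo1 and Inpp4b, the last at 0.72 ± 0.15 in ASXL1-MT-KI cells and 0.89 ± 0.18 in wild type cells. Single libraries held 201 to 16194 counts of a member, and the median coefficient of variation of the members was 4.01% in ASXL1-MT-KI and 4.12% in wild type libraries.

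**Figure D2:**
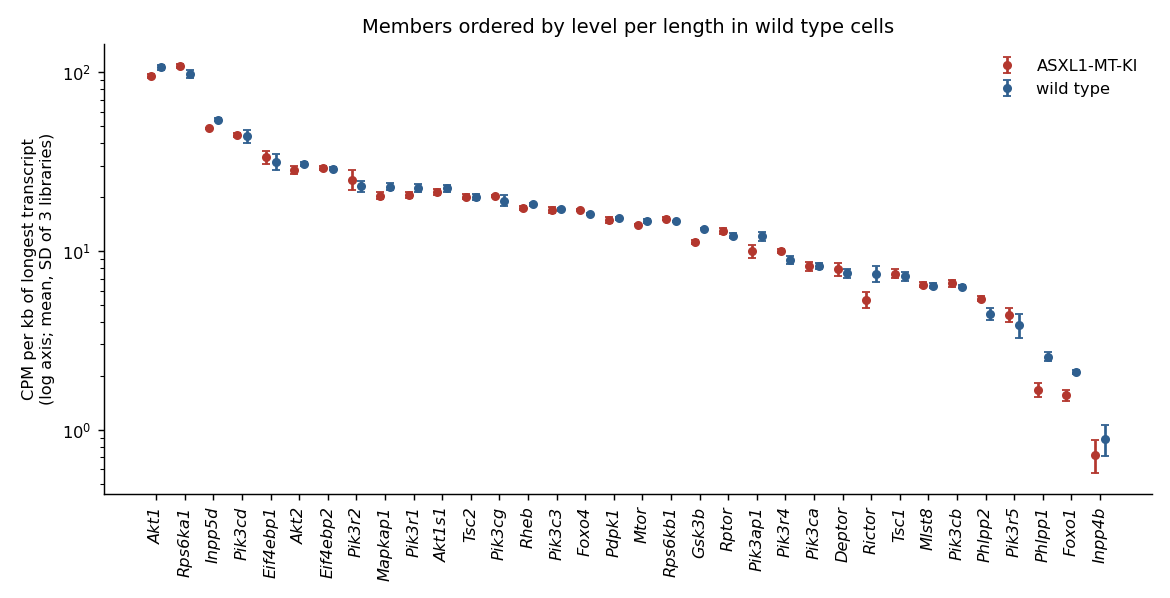
Mean level of each member in CPM per kb of its longest transcript on a log axis, with the SD of 3 libraries, in ASXL1-MT-KI (red, left) and wild type cells (blue, right). Members run from Akt1 to Inpp4b by their wild type level, and Phlpp1, Rictor and Foxo1 show the clearest gaps between genotypes.

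Shared regulation of the members below was not tested. Shown are the promoters of the 4 members whose fall was called under every alternative, and of Phlpp2, which rose. Each runs from 250 bases before to 50 bases after the start in RefSeq (GRCm38.p6, plus strand): Phlpp1 at chr1:106171619-106171918, Rictor at chr15:6708131-6708430, Foxo1 at chr3:52268087-52268386, Gsk3b at chr16:38088751-38089050 and Phlpp2 at chr8:109868353-109868652. Capitals mark GC boxes (GGGCGGG) and CCAAT boxes (CCAAT) on either strand.
Phlpp1: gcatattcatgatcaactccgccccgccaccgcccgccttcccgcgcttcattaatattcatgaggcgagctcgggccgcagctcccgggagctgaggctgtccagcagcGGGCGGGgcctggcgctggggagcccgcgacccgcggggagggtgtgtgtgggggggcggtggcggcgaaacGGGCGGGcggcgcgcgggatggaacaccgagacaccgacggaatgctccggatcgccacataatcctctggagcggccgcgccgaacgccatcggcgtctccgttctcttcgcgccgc
Rictor: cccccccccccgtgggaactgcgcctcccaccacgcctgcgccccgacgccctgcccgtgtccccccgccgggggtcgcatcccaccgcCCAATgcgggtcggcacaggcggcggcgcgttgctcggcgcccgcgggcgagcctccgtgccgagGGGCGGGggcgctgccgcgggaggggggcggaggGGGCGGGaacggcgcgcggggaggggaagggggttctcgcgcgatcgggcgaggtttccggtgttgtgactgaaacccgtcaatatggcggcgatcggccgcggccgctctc
Foxo1: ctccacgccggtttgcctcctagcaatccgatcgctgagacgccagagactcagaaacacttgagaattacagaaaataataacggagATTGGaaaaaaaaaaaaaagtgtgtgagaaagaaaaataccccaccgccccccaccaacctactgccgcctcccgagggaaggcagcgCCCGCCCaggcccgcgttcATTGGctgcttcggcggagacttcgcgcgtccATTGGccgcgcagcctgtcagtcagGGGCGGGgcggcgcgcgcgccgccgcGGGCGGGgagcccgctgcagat
Gsk3b: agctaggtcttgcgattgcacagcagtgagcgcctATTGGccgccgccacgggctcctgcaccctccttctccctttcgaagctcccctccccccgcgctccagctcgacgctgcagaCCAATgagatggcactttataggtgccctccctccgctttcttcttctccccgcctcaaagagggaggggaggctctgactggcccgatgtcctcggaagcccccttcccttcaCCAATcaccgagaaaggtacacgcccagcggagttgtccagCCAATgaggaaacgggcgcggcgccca
Phlpp2: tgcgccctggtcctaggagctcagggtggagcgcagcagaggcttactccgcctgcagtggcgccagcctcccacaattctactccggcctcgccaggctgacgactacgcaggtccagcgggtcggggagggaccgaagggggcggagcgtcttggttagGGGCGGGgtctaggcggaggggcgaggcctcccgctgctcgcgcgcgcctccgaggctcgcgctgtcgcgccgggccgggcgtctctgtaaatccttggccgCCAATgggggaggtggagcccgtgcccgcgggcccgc
GC boxes numbered 2 in Phlpp1, 2 in Rictor, 3 in Foxo1, 0 in Gsk3b and 1 in Phlpp2, and CCAAT boxes 0, 1, 3, 4 and 1 in the same order. Over the 300-base windows of all promoters 25.6% held a GC box and 37.4% a CCAAT box, and over 42 windows of 30 members 42.9% and 33.3%. None of the 5 windows held the FOXO core GTAAACA, the E-box CACGTG, the ETS core CCGGAAG or the CRE TGACGTCA on either strand, which 3.65%, 7.15%, 8.86% and 1.79% of all promoters held. Of the 42 member windows 9.52%, 4.76%, 16.7% and 0% held them, in the same order. The GC content of the 5 windows was 61.3% to 78.3%, against a median of 52.7% over all promoters and 60.3% over the members.

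Transcripts of the kinase subunits that make the lipid signal were at close levels in both genotypes. Calls among the 4 class I catalytic genes numbered 0 in edgeR (0 also before adjustment, at p under 0.05) and likewise in DESeq2 and limma-voom. Pik3cd, which encodes the p110 delta form typical of leukocytes, was at 219.9, 214.3 and 224.6 CPM in ASXL1-MT-KI libraries and at 195.3, 220.8 and 229.4 CPM in wild type libraries. Pik3cg, the form that answers G protein-coupled receptors, was at 119.4, 118.0 and 121.4 CPM in ASXL1-MT-KI libraries and at 111.9, 104.5 and 120.5 CPM in wild type libraries. The genotypes overlapped for both genes, and the 95% intervals of the log2 fold change were -0.11 to 0.17 for Pik3cd and -0.04 to 0.22 for Pik3cg. Pik3ca and Pik3cb, the broadly expressed alpha and beta forms, had intervals of -0.14 to 0.12 and -0.07 to 0.19. Among catalytic transcripts per length, Pik3cd made up 55.95% ± 0.39 in ASXL1-MT-KI and 56.44% ± 1.94 in wild type libraries (SD, n = 3 each; exact two-sided permutation p = 0.7, smallest possible 0.1), and Pik3cg 25.54% ± 0.27 and 24.73% ± 1.56.

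Of the regulatory genes, Pik3ap1 alone passed the threshold. Pik3ap1 encodes BCAP, an adaptor that links B cell and Toll-like receptors to PI3K. It had 43.3, 41.7 and 49.1 CPM in ASXL1-MT-KI libraries, against 56.1, 50.6 and 56.1 CPM in wild type libraries. Every ASXL1-MT-KI value lay below every wild type value, and the log2 fold change was -0.28 ± 0.074 (SE; adjusted p = 0.0314, edgeR). Leaving out ASXL1-MT-KI replicate 1 or 2 or wild type replicate 1 or 3 ended the call, with adjusted p of 0.0913, 0.115, 0.120 and 0.0539 in that order, as did total counts (0.0744). Pik3r1, which encodes p85 alpha, the main regulatory subunit of class IA enzymes, averaged 146.3 ± 6.42 CPM in ASXL1-MT-KI and 159.8 ± 8.23 CPM in wild type cells (log2 fold change -0.13, adjusted p = 0.155; 0.0222 with the block). Pik3r2, for p85 beta, and Pik3r5, the p101 partner of p110 gamma, had log2 fold changes of 0.12 and 0.19 with adjusted p of 0.409 and 0.315, and the genotypes overlapped for both.

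The class III genes, whose products form the VPS34 lipid kinase of autophagy and endosomes, were not called by edgeR (1 of 2 before adjustment, at p under 0.05), DESeq2 or limma-voom. Pik3c3, the catalytic subunit, was at 55.2 ± 2.33 CPM in ASXL1-MT-KI and 55.7 ± 1.27 CPM in wild type cells. Pik3r4, its VPS15 partner, was at 49.2 ± 1.40 CPM in ASXL1-MT-KI and 44.1 ± 2.23 CPM in wild type cells without overlap (log2 fold change 0.16, adjusted p = 0.104; 0.0387 with the block and 0.0422 with total counts). Over all tested genes 35.2% did not overlap between genotypes, and 16 of the 34 members did not.

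Of the 4 phosphatases that oppose the pathway 2 fell and 1 rose. PHLPP1 and PHLPP2 remove an activating phosphate from AKT and other kinases. Phlpp1 had 10.3, 9.49 and 11.4 CPM in ASXL1-MT-KI libraries, against 16.9, 15.1 and 15.9 CPM in wild type libraries. It fell by 34.9% (log2 fold change -0.62 ± 0.092, adjusted p = 0.00228), which was the largest fold change among the members. Its paralog Phlpp2 had 41.0, 43.8 and 42.5 CPM in ASXL1-MT-KI libraries, against 37.0, 31.9 and 35.7 CPM in wild type libraries. It rose by 21.7% (log2 fold change 0.28 ± 0.069, adjusted p = 0.0231). Leaving out ASXL1-MT-KI replicate 2 or 3 or wild type replicate 2 ended this call, with adjusted p of 0.0971, 0.0524 and 0.0576 in that order. The genotypes did not overlap for either gene. The ratio of Phlpp2 to Phlpp1 counts within a library, chosen after the values were seen and so given with no test, was 3.97, 4.61 and 3.75 in ASXL1-MT-KI libraries and 2.19, 2.12 and 2.25 in wild type libraries.

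Inpp5d encodes SHIP1, the lipid phosphatase of blood cells that turns over the PI3K product. It was at 240.1, 236.2 and 240.3 CPM in ASXL1-MT-KI libraries, against 264.6, 272.9 and 266.7 CPM in wild type libraries. The fall was small beside its level, at 10.9% (log2 fold change -0.17 ± 0.042, adjusted p = 0.0259), with no overlap between genotypes. Leaving out ASXL1-MT-KI replicate 1, 2 or 3 or wild type replicate 1 or 2 raised the adjusted p to 0.0815, 0.118, 0.0645, 0.0612 and 0.0722 in that order, and total counts gave 0.0797. Inpp4b, for the phosphatase that acts on the next lipid product, was scarce and variable, at 5.83 ± 1.22 CPM in ASXL1-MT-KI and 7.18 ± 1.44 CPM in wild type cells (log2 fold change -0.30, 95% interval -0.73 to 0.13).

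**Figure D3:**
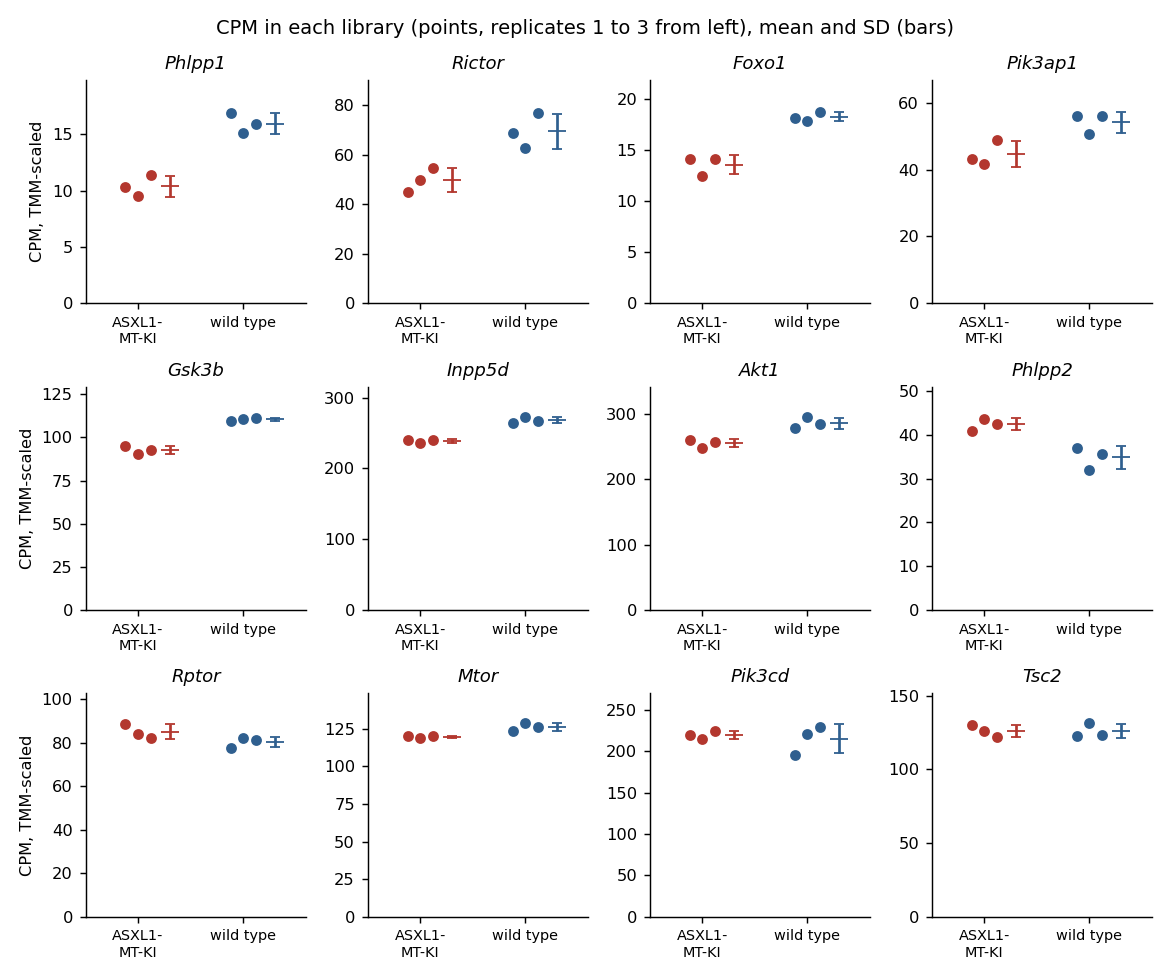
TMM-scaled CPM of 12 members in each library (points), with mean and SD of 3 libraries (bars); ASXL1-MT-KI is left and wild type right, and each axis starts at 0. The 7 genes that fell, Phlpp1 to Akt1, show no overlap between genotypes, Phlpp2 is higher in every ASXL1-MT-KI library, and Pik3cd and Tsc2 overlap.

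Akt1 was the kinase of the core cascade that fell. Akt1, the ubiquitous AKT isoform, had 260.7, 248.7 and 257.1 CPM in ASXL1-MT-KI libraries, against 278.1, 295.4 and 284.5 CPM in wild type libraries. This is a fall by 10.7% without overlap (log2 fold change -0.16 ± 0.046, adjusted p = 0.0397). The call was the least stable of the 8: the adjusted p was 0.0855, 0.170 and 0.0868 without ASXL1-MT-KI replicate 1, 2 or 3, 0.0665 and 0.114 without wild type replicate 1 or 2, 0.116 with total counts and 0.0545 with no filter. Akt2, the isoform known for insulin responses, was at 136.1, 128.9 and 121.9 CPM in ASXL1-MT-KI and at 141.8, 141.0 and 134.4 CPM in wild type libraries. Its genotypes overlapped, with a log2 fold change of -0.11 (95% interval -0.23 to 0.01, adjusted p = 0.210). Akt1 made up 77.0% ± 0.94 of AKT1 and AKT2 transcripts per length in ASXL1-MT-KI libraries and 77.64% ± 0.72 in wild type libraries (SD, n = 3 each; exact two-sided permutation p = 0.3, smallest possible 0.1). Pdpk1, which encodes PDK1, was at 107.1 ± 4.18 CPM in ASXL1-MT-KI and 109.2 ± 1.97 CPM in wild type cells.

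The genes of the switch between AKT and mTOR complex 1 were not called by edgeR (0 of 3 before adjustment, at p under 0.05), DESeq2 or limma-voom. Tsc1, for the stabilising subunit of the TSC complex, had 53.5, 58.8 and 60.2 CPM in ASXL1-MT-KI libraries and 52.1, 55.3 and 59.1 CPM in wild type libraries. Tsc2, the subunit that turns RHEB off and the AKT substrate, had 129.97, 125.9 and 121.9 CPM in ASXL1-MT-KI libraries and 122.9, 131.4 and 123.2 CPM in wild type libraries. Both overlapped between genotypes, and the interval for Tsc2 was -0.11 to 0.11. Rheb, the small GTPase that activates mTOR complex 1, had a log2 fold change of -0.06 (adjusted p = 0.409).

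Within mTOR, the subunit that defines complex 2 fell while those of complex 1 were not called. RICTOR is the scaffold of complex 2, which phosphorylates AKT. Rictor had 44.8, 49.8 and 54.7 CPM in ASXL1-MT-KI libraries, against 68.9, 62.9 and 77.0 CPM in wild type libraries. Every ASXL1-MT-KI library lay below every wild type library, and the fall was by 28.5% (log2 fold change -0.48 ± 0.091, adjusted p = 0.00842). Number 3 was the highest library of each genotype, by 0.21 on the log2 scale above numbers 1 and 2 in ASXL1-MT-KI and 0.22 in wild type. Mapkap1, for the SIN1 subunit of complex 2, was at 63.3 ± 2.66 CPM in ASXL1-MT-KI and 71.3 ± 3.49 CPM in wild type cells. It did not overlap but missed the threshold (log2 fold change -0.17, adjusted p = 0.0756). It passed with the block (adjusted p = 0.0109), without wild type replicate 3 (0.0308) and without the number 3 libraries (0.0485).

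Rptor encodes RAPTOR, the scaffold of complex 1. It had 88.8, 84.2 and 82.4 CPM in ASXL1-MT-KI libraries, against 77.8, 82.1 and 81.3 CPM in wild type libraries, a log2 fold change of 0.08 with an interval of -0.03 to 0.20. Mtor, the kinase shared by both complexes, had 120.1, 119.1 and 120.1 CPM in ASXL1-MT-KI libraries, against 123.3, 128.7 and 126.1 CPM in wild type libraries. Its values did not overlap, but the difference of -0.07 on the log2 scale did not pass (adjusted p = 0.307). The Rptor to Rictor count ratio, chosen after the values were seen and given with no test, was 1.98, 1.69 and 1.51 in ASXL1-MT-KI libraries and 1.13, 1.31 and 1.06 in wild type libraries. Mlst8, which encodes a shared subunit, the inhibitor gene Deptor and Akt1s1, which encodes the complex 1 inhibitor PRAS40, had log2 fold changes of 0.01, 0.08 and -0.07 and were not called. Of the exonic bases of Mlst8, 22.5% overlap the gene Bricd5, so its reads are less certain.

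The 4 effectors of translation and growth were not called by edgeR (1 before adjustment, at p under 0.05), DESeq2 or limma-voom. Rps6kb1, for the S6 kinase of complex 1, was at 83.8 ± 1.80 CPM in ASXL1-MT-KI and 80.9 ± 0.86 CPM in wild type cells. The translation repressor genes Eif4ebp1 and Eif4ebp2 had log2 fold changes of 0.08 and 0.01, and number 3 was the lowest library of both genotypes for Eif4ebp1, by -0.20 in ASXL1-MT-KI and -0.26 in wild type. Rps6ka1, for the RSK1 kinase of the ERK branch, averaged 339.2 ± 6.74 CPM in ASXL1-MT-KI and 307.6 ± 15.4 CPM in wild type cells without overlap (log2 fold change 0.14, adjusted p = 0.0879). It passed with the block (adjusted p = 0.0130), with total counts (0.0364), without wild type replicate 3 (0.0395) and with the block over numbers 1 and 2 (0.0420).

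Of the 3 GSK3 and FOXO members 2, Gsk3b and Foxo1, fell and 0 rose, beside 7.69% and 8.29% of all tested genes. Gsk3b encodes a kinase that restrains glycogen synthesis and beta-catenin. It had 95.3, 90.4 and 92.7 CPM in ASXL1-MT-KI libraries, against 109.6, 110.4 and 111.5 CPM in wild type libraries, a fall by 16.0% (log2 fold change -0.25 ± 0.046, adjusted p = 0.00627). FOXO1 activates genes of quiescence, stress resistance and lymphoid development. Foxo1 had 14.1, 12.5 and 14.1 CPM in ASXL1-MT-KI libraries, against 18.1, 17.8 and 18.7 CPM in wild type libraries, a fall by 25.6% (log2 fold change -0.43 ± 0.078, adjusted p = 0.00639). Neither gene overlapped between genotypes, and of the exonic bases of Foxo1 7.78% overlap the gene Gm20402. B lymphoid cells are known to use Foxo1 and Pik3ap1, and the summed B lymphoid markers given above were lower in ASXL1-MT-KI libraries too. A large part of that sum was Dntt. Of 9 tested B lymphoid markers 4, Dntt among them, fell and 0 rose, beside 7.69% and 8.29% of all tested genes. Of the others, 1 had a positive log2 fold change. The part of B lymphoid cells in the falls of Foxo1 and Pik3ap1 was not tested. Foxo4, a paralog on the X chromosome, was at 53.4 ± 0.55 CPM in ASXL1-MT-KI and 51.0 ± 0.54 CPM in wild type cells, higher without overlap but not called (log2 fold change 0.07, adjusted p = 0.392). Foxo1 made up 8.82%, 7.92% and 8.68% of FOXO1 and FOXO4 transcripts per length in ASXL1-MT-KI libraries, against 11.59%, 11.34% and 11.68% in wild type libraries (exact two-sided permutation p = 0.1, the smallest that 3 against 3 libraries allow).

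**Figure D4:**
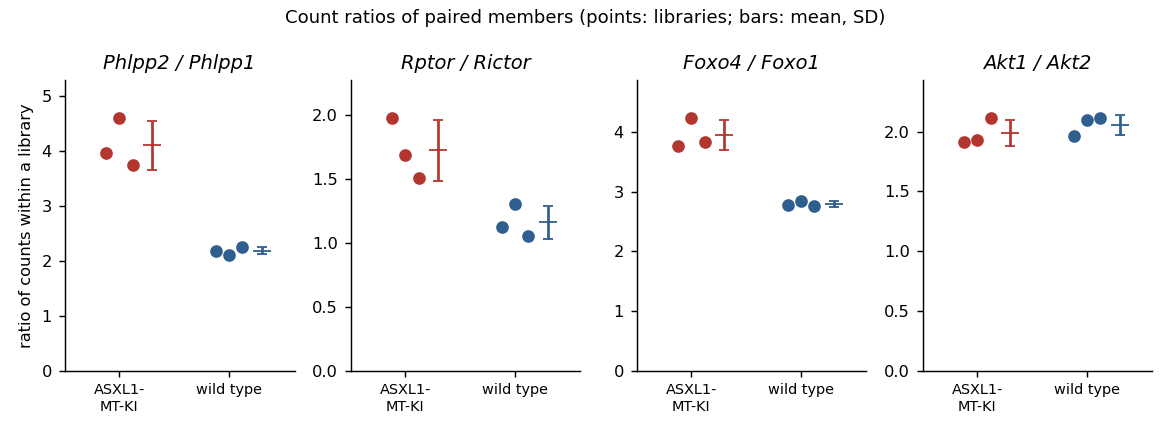
Ratio of the counts of members within each library (points), with mean and SD of 3 libraries (bars), ASXL1-MT-KI left and wild type right. The Phlpp2 to Phlpp1, Rptor to Rictor and Foxo4 to Foxo1 ratios are higher in all ASXL1-MT-KI libraries, with means of 4.11 against 2.19, 1.72 against 1.16 and 3.95 against 2.80, while Akt1 to Akt2 overlaps.

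Of the 26 members that were not called, 24 had a 95% interval that lay within a 1.3-fold change in either direction, so changes past that size were outside their intervals. The intervals of the other 2, Pik3r5 and Inpp4b, reached past it. The summed CPM of all members was 3141 to 3184 in ASXL1-MT-KI libraries and 3174 to 3282 in wild type libraries, which overlap. In number 3 of both genotypes 16 members were higher and 6 lower than in numbers 1 and 2, beside 35.7% and 34% of all tested genes.

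Genes around the pathway, in 9 further lists of 187 genes, also fell more often than they rose. All 9 lists were drawn up with earlier results of these data known, so their counts are a description and no independent support. Of 180 tested, 34 fell and 6 rose, with a median log2 fold change of -0.06; with the block 52 fell and 12 rose, and with total counts 27 fell and 7 rose. Over all tested genes 7.69% fell and 8.29% rose, or 13.8% and 16.7% with the block and 5.66% and 11.5% with total counts, and counts in the shorter lists below are read beside these shares. The falls numbered 21 on omitting ASXL1-MT-KI replicate 2 and 22 on omitting wild type replicate 1, and the rises 2 without either of these or ASXL1-MT-KI replicate 1. Genes known as FOXO targets made up the list with the lowest median, -0.35, and 9 of 22 fell. Rises numbered 0 in edgeR (0 before adjustment, at p under 0.05) and likewise in DESeq2 and limma-voom. S1pr1, a receptor for egress whose fall was known before the list was drawn up, fell to 6.12 ± 0.48 CPM in ASXL1-MT-KI cells, against 17.5 ± 0.77 CPM in wild type cells. Ccng2, which encodes the antiproliferative cyclin G2, fell to 41.2 ± 0.95 CPM, against 57.4 ± 3.47 CPM in wild type (adjusted p = 0.00101), and Cdkn2d, for a CDK4 and CDK6 inhibitor, to 21.5 ± 1.38 CPM, against 30.5 ± 0.64 CPM in wild type (adjusted p = 0.00153). Cdkn1a, which encodes the inhibitor p21, had 106.6, 71.2 and 85.2 CPM in ASXL1-MT-KI libraries, against 196.6, 184.8 and 169.5 CPM in wild type libraries (adjusted p = 0.00437; 0.117 without the number 3 libraries). These genes answer to other regulators too, and the list shares Rag1 with the B lymphoid markers.

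**Figure D5:**
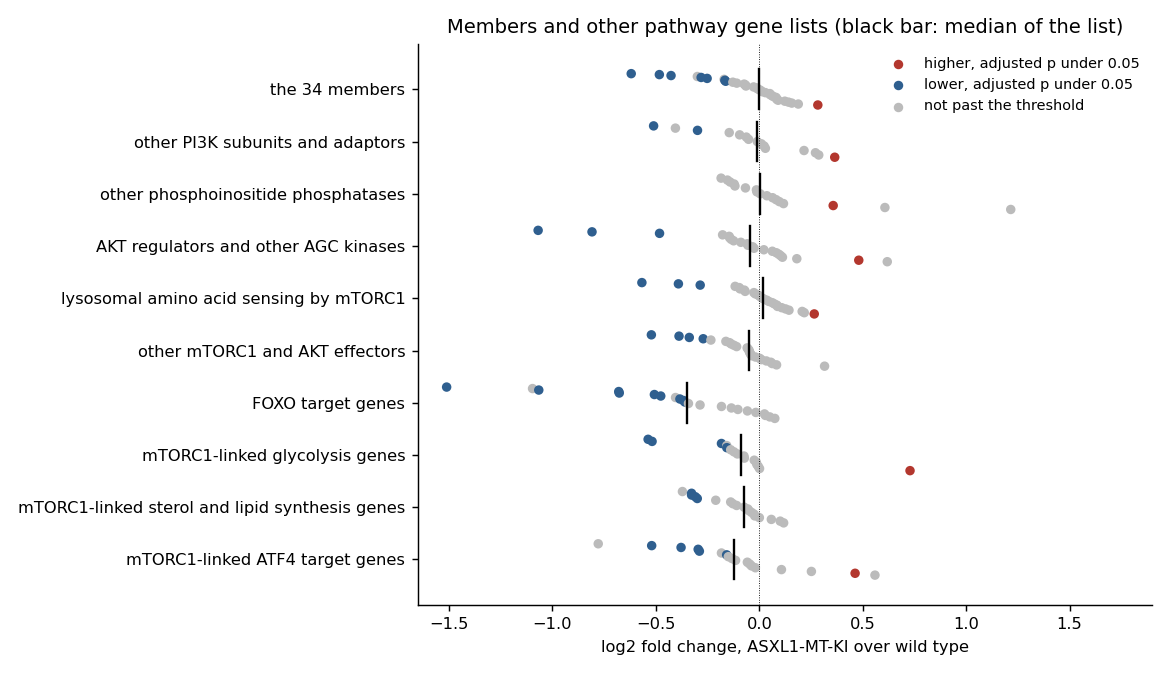
Log2 fold change, ASXL1-MT-KI over wild type, of the tested genes of the 34 members and of 9 further pathway lists, with the median of each list as a black bar. The median is 0.00 for the members and -0.35 for FOXO target genes, where 9 of 22 are lower.

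Among genes that feed into PI3K, 2 of 15 fell and 1 rose, beside 7.69% and 8.29% of all tested genes, and with the block 2 fell and 3 rose. Irs2, for an insulin receptor substrate that recruits PI3K, fell to 23.8 ± 1.38 CPM in ASXL1-MT-KI cells, against 33.98 ± 3.36 CPM in wild type cells (adjusted p = 0.00402). Gab2, a docking adaptor of cytokine receptors, fell by 0.30 on the log2 scale and its relative Gab1 rose by 0.36. The Gab2 call ended on leaving out wild type replicate 1 (adjusted p = 0.0550), and the Gab1 call on leaving out ASXL1-MT-KI replicate 1 (0.0668) or 2 (0.0895). Of 17 other phosphoinositide phosphatases 1 rose in edgeR, and falls numbered 0 in edgeR (2 before adjustment, at p under 0.05) and likewise in DESeq2 and limma-voom; the block gave 2 rises and 3 falls, and leaving out wild type replicate 2 gave 2 of each. The gene that rose was Synj2 (log2 fold change 0.36), lost without wild type replicate 1 (adjusted p = 0.0747) or 2 (0.0510).

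In the list of AKT regulators and related kinases 3 of 22 fell and 1 rose, or 7 and 2 with the block; leaving out ASXL1-MT-KI replicate 2 gave 1 fall, and leaving out wild type replicate 3 gave 5. Ddit4 encodes REDD1, a stress-induced inhibitor that acts through the TSC complex. It had 35.8, 33.4 and 28.8 CPM in ASXL1-MT-KI libraries, against 67.0, 60.9 and 43.5 CPM in wild type libraries (log2 fold change -0.81 ± 0.17, adjusted p = 0.0196). Leaving out ASXL1-MT-KI replicate 1, 2 or 3 or wild type replicate 2 ended its call, with adjusted p of 0.0518, 0.0808, 0.0739 and 0.0642 in that order, as did omitting the filter (0.0619). Of the 3 Tribbles pseudokinase genes, Trib2 rose by 0.48 (adjusted p = 0.0312), a call that ended on leaving out ASXL1-MT-KI replicate 1 or 2 (0.0966 and 0.121) or wild type replicate 1 or 3 (0.125 and 0.0685). Trib1 fell by 0.48 (adjusted p = 0.0109) and Trib3, for a binder of AKT, by 1.07, at 0.592 ± 0.036 CPM in ASXL1-MT-KI and 1.24 ± 0.25 CPM in wild type cells (adjusted p = 0.0147). The Trib3 call ended on leaving out ASXL1-MT-KI replicate 2 (0.0553) or wild type replicate 1 (0.0707). In the lysosomal branch that senses amino acids 3 of 26 fell and 1 rose, beside 7.69% and 8.29% of all tested genes. The lowest p was that of Fnip1, the partner of folliculin, at 51.0 ± 3.07 CPM in ASXL1-MT-KI and 75.6 ± 10.04 CPM in wild type cells (adjusted p = 0.00460). Without ASXL1-MT-KI replicate 1 or 2 or wild type replicate 1, and with total counts, 1 fell in that list. Its rise, that of Lamtor3, ended with the size factors of DESeq2, without the number 3 libraries and on leaving out any 1 library other than wild type replicate 2.

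Further effectors showed 4 falls among 25, beside 7.69% of all tested genes, while rises numbered 0 in edgeR (0 before adjustment, at p under 0.05) and likewise in DESeq2 and limma-voom; 1 rose with the block or without the number 3 libraries. Ulk1, the autophagy kinase that mTOR complex 1 inhibits, fell to 71.7 ± 1.69 CPM in ASXL1-MT-KI cells, against 93.8 ± 4.80 CPM in wild type cells (log2 fold change -0.39 ± 0.054, adjusted p = 0.00166). Grb10, an adaptor that dampens insulin receptor signalling, fell by 0.52 (adjusted p = 0.00306) and Mdm2, the p53 ligase gene, by 0.34 (adjusted p = 0.00621). Foxo3, the FOXO gene best known in blood stem cells, fell by 0.27, a call that ended on leaving out ASXL1-MT-KI replicate 2 (adjusted p = 0.0609).

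Metabolic genes that mTOR complex 1 is known to raise through HIF1A, SREBP and ATF4 were lower where called, with 2 exceptions. In the glycolysis list 4 of 16 fell and 1 rose: Hif1a was at 79.1 ± 6.16 CPM in ASXL1-MT-KI and 113.2 ± 9.22 CPM in wild type cells, the glucose transporter gene Slc2a1 fell by 0.54, and the lactate exporter gene Slc16a3 rose by 0.73 (adjusted p = 0.00211, 0.00253 and 0.00150). With total counts, and without any library other than wild type replicate 3, 2 fell in this list. Of 19 sterol and lipid genes 4 fell, among them Insig1, which encodes a partner of the sterol sensor, by 0.33 (adjusted p = 0.00584), or 2 without ASXL1-MT-KI replicate 2 or wild type replicate 1. Rises numbered 0 in edgeR (0 before adjustment, at p under 0.05) and likewise in DESeq2 and limma-voom. In the ATF4 list 5 of 18 fell and Pycr1, a proline synthesis gene named because it was the single rise, was higher; the stress factor gene Ddit3 fell by 0.52 and Cebpb by 0.38 (adjusted p = 0.00256 and 0.00442). With the block 8 fell and 2 rose, and 2 or 3 fell without ASXL1-MT-KI replicate 2 or 3 or wild type replicate 1 or 2, while the rise was lost without ASXL1-MT-KI replicate 1 or 2 or wild type replicate 1 or 2.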

How the data were processed

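RNA of LK bone marrow cells was sequenced from 200 ng per library as 124 bp paired ends, per the labels' protocols, with a kit that does not mark strand. Reads were aligned with HISAT2 2.0.4 to mm10, per the submitters' processing notes; the sources used here do not give the counter, its annotation or its handling of shared reads, so overlapping genes and close copies are uncertain. The authors deposited raw counts per gene symbol. ASXL1-MT-KI was compared with wild type in edgeR 4.0.16 (R 4.3.3): filterByExpr with a minimum of 10 counts, TMM factors of 0.972 to 1.03, robust glmQLFit and glmQLFTest on genotype alone, and a Benjamini-Hochberg threshold of 0.05. Intervals are 95% intervals of that fit. DESeq2 1.42.0 and limma 3.58.1 were alternatives, with those given in the closing section. The pipeline was tested on simulated data, with changes larger than those of most called members and no effect of the replicate number. That test does not measure how well changes of the members' size are recovered.

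Members, roles and lists were chosen with earlier results of these data known. Values per library were given for called members and 10 core genes fixed by symbol, and list genes by lowest p, up to 4 a list. Same-numbered libraries deviated together, with correlations across genes of 0.307, 0.217 and 0.472, all above 0.1, so a block on the number was reported as an alternative. The main fit left the block out, since no label says what a number marks. ASXL1-MT-KI replicate 1 and wild type replicate 2 also correlated, at 0.179. Over the 34 members alone the same-numbered pairs correlated at -0.0847, 0.242 and 0.714, and ASXL1-MT-KI replicate 1 with wild type replicate 2 at 0.374 and ASXL1-MT-KI replicate 2 with wild type replicate 1 at 0.449, so the members alone do not show the pairing. Lengths and overlaps are from GENCODE M21 (GRCm38, the assembly that mm10 names), and promoters of 30 members from RefSeq. Figures were drawn with matplotlib 3.10.9.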

Additional observations from a re-analysis of the deposited data

How the results depend on the processing

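Results were recomputed under 15 alternatives: scaling by total counts or by the size factors of DESeq2, the tests of DESeq2 and limma-voom, omitting the filter or asking for CPM 1 in 3 libraries, a replicate block, each library left out, and the number 3 libraries left out with and without the block. The falls of Phlpp1, Rictor, Foxo1 and Gsk3b passed in all 15, and the other 4 member calls were lost in 3 to 7 of them. None of the 8 changed direction in any of the 15. With the replicate block 4132 genes passed, 3 members rose and 9 fell, and 12 list genes rose and 52 fell. Scaling by total counts gave 3 members higher, 4 lower and a median of 0.0482 over the members, where that of all genes was 0.05. On leaving out 1 library, calls over all genes ran from 1128 to 2257, members higher from 0 to 2, members lower from 4 to 7, the member median from -0.0288 to 0.0142, list genes higher from 2 to 6 and lower from 21 to 35. Without the number 3 libraries 2413 genes passed, or 2814 with the block, with 2 members higher and 7 lower in the latter fit and 8 or 9 list genes higher and 38 or 43 lower. The cause of these differences was not tested. Differences between genotypes in the shares per length moved by less than the spread between replicates with summed exon lengths or with a library left out, while the shares themselves depend on the length used; on leaving out 1 library the difference in the Foxo1 share ran from -3.23 to -2.79 points. List counts, and shares with a library left out, were alternatives chosen after seeing the data. With 3 libraries a group, members such as Inpp4b, at about 6 CPM, could change by over 1.3-fold within their interval.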
